A study of Mus musculus with 29 samples.

Results

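The genes described here are 61 mouse genes of the proteasome and of ubiquitin conjugation and removal, out of 8726 genes named on the arrays. They were chosen by symbol alone, as every gene whose platform symbol begins with Psma, Psmb, Psmc, Psmd, Psme, Ube2, Uch or with Usp and a digit. The choice took in 9 genes of the 20S core, 4 ATPases and 7 other subunits of the 19S regulatory particle, 2 activators, 15 conjugating enzymes, 21 ubiquitin-specific proteases and the C-terminal hydrolase Uchl1. It also took in 2 genes that share only the prefix, Psmc3ip, a factor of meiotic recombination, and Ube2cbp, a ubiquitin ligase.

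Ubiquitin is activated by an E1 enzyme, passed to a conjugating E2 enzyme and joined to a substrate with the help of an E3 ligase, and deubiquitinating enzymes take it off again. Chains of ubiquitin send a protein to the proteasome, in which the 19S regulatory particle binds, unfolds and feeds the substrate into the 20S core, where it is cut. In neurons the pathway clears damaged proteins and remodels synapses, and Uchl1 is among the abundant neuronal proteins.

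The study set the hypothalamus of female BALB/c mice, injected under the skin at 8 weeks of age with 100000 cells of 4T-1, a mouse mammary carcinoma line, against that of females given PBS alone. Tumour-injected mice had the cells in 100 µl PBS and control mice had 100 µl PBS, and both were killed 18, 72 or 192 h later. RNA of a tumour-injected and a PBS sample was hybridised to 1 array in Cy3 and Cy5, so each array gives a log2 ratio of tumour over PBS and there is no level per group. Per the design text the replicates are biological samples and the second array of a replicate repeats the same RNA pair with the dyes exchanged; how many animals make a sample is not stated.

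The values come from the 16 arrays of the array prints numbered 3 to 5, which make 3 replicates at each time, out of 29 arrays in the series. Replicates 3, 4 and 5 of 18 h, 3 and 4 of 72 h and 4 of 192 h were on print 5, replicate 1 of 72 h and 3 of 192 h on print 4, and replicate 1 of 192 h on print 3. Replicate 1 of 72 h and of 192 h were poly(A) RNA on 1 array each, with tumour RNA in Cy5, and the others total RNA on 2 arrays. Between 15.1% and 83.7% of probes were usable on an array, the lowest shares being 15.1% and 22.5% on the 2 arrays of replicate 5 of 18 h. Hypothalamic markers, neuropeptides and transcription factors of its nuclei, were represented by 15 of 26 listed genes, of which 2 to 14 gave a value in a replicate, and neuronal markers by 13 of 19, of which 4 to 13 did. In whole tissue, fewer cells of a type and less RNA per cell cannot be told apart.

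Of the 61 genes, 59, 37 and 23 had a value in replicates 3, 4 and 5 of 18 h. In replicates 1, 3 and 4 the numbers were 42, 55 and 56 at 72 h and 43, 57 and 59 at 192 h. A gene was tested at a time only where all 3 replicates gave a value, which left 16 members at 18 h, 36 at 72 h and 41 at 192 h, and 11 with a value in all 9 replicates.

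At no time did a proteasome or ubiquitin pathway gene pass the test, which was limma's moderated test with Benjamini-Hochberg adjustment over all genes and a threshold of 0.05. The test called 0 of 16 members at 18 h, 0 of 36 at 72 h and 0 of 41 at 192 h, against 0% of the 1459, 3782 and 3318 genes tested. The smallest limma adjusted p among the members was 0.735 at 18 h, 0.9997 at 72 h and 0.992 at 192 h. An unadjusted limma p under 0.05 was reached by 0 members at 18 h, where 6.17% of all genes did, by 1 member, Psmb6, at 72 h, where 3.36% did, and by 0 at 192 h, where 3.77% did. These shares are near or under the background, so the members are described below by their ratios in each replicate and not as changed genes.

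The members leaned below 0 at 18 h and above 0 at 72 h, both as single values and as medians. At 18 h the mean ratio was above 0 in 4 of 16 members, against 30.6% of all genes, and the median log2 ratio was -0.095 for members and -0.091 for all genes. At 72 h the mean was above 0 in 28 of 36 members, against 54.2% of all genes, with medians of 0.11 and 0.017. At 192 h it was above 0 in 22 of 41 members, against 49% of all genes, with medians of 0.035 and -0.0032. The members' median thus lay close to that of all genes at 18 h and 192 h and farthest above it at 72 h.

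Each lean came mainly from 1 replicate. In replicates 3, 4 and 5 of 18 h the median over measured members was -0.19, -0.042 and 0.091, and in replicates 1, 3 and 4 of 72 h it was 0.20, 0.055 and -0.027. At 192 h replicates 1, 3 and 4 had medians of 0.10, 0.050 and 0.010. Replicate 3 of 18 h was thus the lowest and replicate 1 of 72 h, the poly(A) replicate on print 4, the highest. Without replicate 3, 9 of the 16 members at 18 h had a mean above 0, against 45.5% of all genes. Leaving out replicate 1 also leaves only print 5 and total RNA at 72 h. Then 24 of 50 members had a mean above 0, against 49.6% of all genes, and their median was -0.0055. These 50 include members not tested with all 3 replicates. Of the 36 tested there, 12 changed sign without replicate 1, all but Psmc1 and Ube2w from above to below 0.

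**Figure D1:**
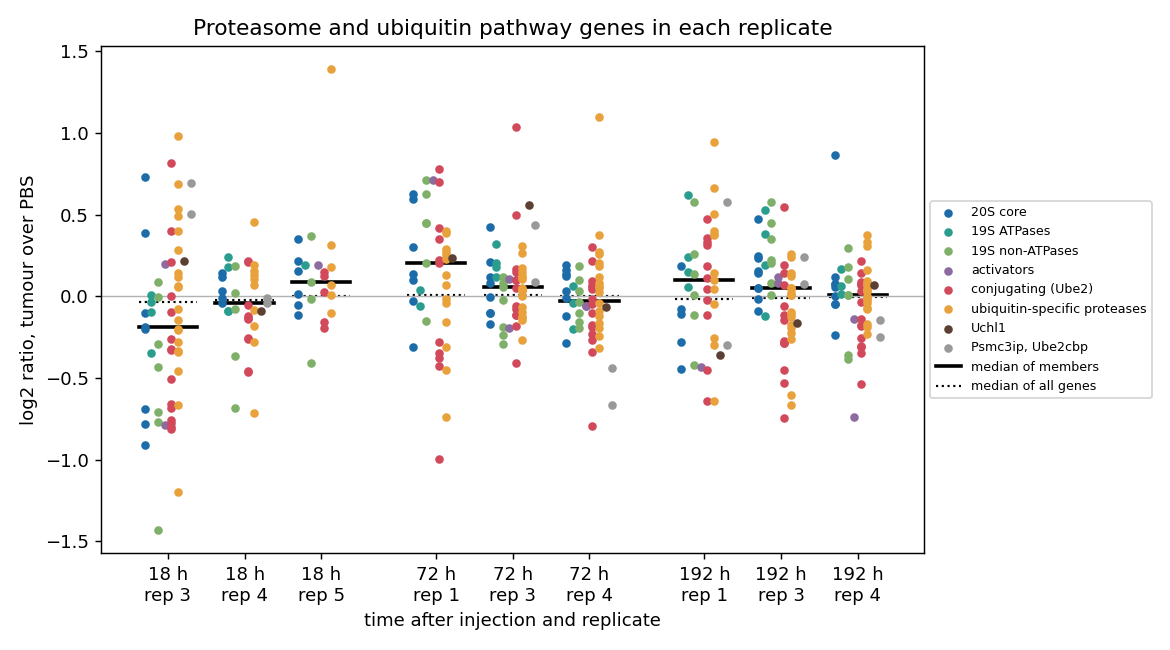
Log2 ratio of tumour over PBS (vertical axis) of every measured proteasome and ubiquitin pathway gene in each of the 9 replicates (horizontal axis), coloured by role, with the median over members as a solid line and that over all genes as a dotted line. The members' medians run from -0.19 in replicate 3 of 18 h to 0.20 in replicate 1 of 72 h, and in every replicate single genes lie on both sides of 0.

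The members were also counted by whether all 3 replicates of a time had the same sign. All 3 ratios were above 0 in 0 of 16 members at 18 h, 9 of 36 at 72 h and 10 of 41 at 192 h, against 6.92%, 13.9% and 12.5% of all genes. All 3 were below 0 in 3 members at 18 h, 5 at 72 h and 3 at 192 h, against 20.2%, 10.2% and 13.9% of all genes. The members' share lay above that of all genes on both sides at 72 h and on the positive side at 192 h, and below it in the other cases.

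The arrays with exchanged dyes show how well a ratio repeats when the same RNA pair is labelled the other way. Over the 7 replicates with both labellings, members gave 237 pairs of ratios, of which 121 (51.1%) had the same sign, against 56.4% for all genes. In replicate 3 of 18 h 33 of 46 members kept their sign, 24 of them negative, against 75.6% of all genes that kept theirs. Pearson's r between the 2 labellings was 0.60 across members, which share the arrays and are not independent. All these ratios follow the subtraction of a dye effect estimated from the same arrays. A probe measured only in the 2 labellings of 1 replicate then gets equal ratios in both, so part of the agreement is built in. In replicate 4 of 18 h only 4 of 21 members kept their sign, against 45.5% of all genes, with an r of -0.84 across members. The counts were 10 of 16 in replicate 5 of 18 h, against 48.2% of all genes. They were 17 of 42 and 23 of 35 in replicates 3 and 4 of 72 h, against 50.2% and 61.4%. In replicates 3 and 4 of 192 h they were 14 of 33 and 20 of 44, against 46.9% and 48.2%.

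The share of members that kept their sign was thus highest in replicate 3 of 18 h, as was the share of all genes. Most members had opposite signs in 4 of the 7 replicates. Across all genes r between the labellings was 0.63, -0.37 and -0.11 in replicates 3, 4 and 5 of 18 h, -0.25 and 0.26 in replicates 3 and 4 of 72 h, and -0.077 and -0.066 in replicates 3 and 4 of 192 h. Before the dye effect was subtracted r was 0.49, -0.74 and -0.43 in replicates 3, 4 and 5 of 18 h. It was -0.63 and 0.11 in replicates 3 and 4 of 72 h, and -0.16 and -0.24 in replicates 3 and 4 of 192 h. Where r was negative, the Cy5 over Cy3 ratios of the paired arrays thus ran the same way although the labels exchange the samples. Whether the dye effect of the probes or the labelled orientation lies behind this was not tested. Without replicate 4 the mean was above 0 in 7 of 22 members at 18 h, and without replicate 3 in 28 of 39 members at 72 h. In the authors' deposited value tables, from which no dye effect was subtracted here, 118 of 244 pairs of labellings (48.4%) had the same sign. With loess fitted within print blocks and the dye effect subtracted, 121 of 230 pairs (52.6%) did.

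The 20S core is a barrel of alpha subunits, which form its gate, and beta subunits, some of which carry the cutting sites. Its mean ratio was above 0 in 2 of 5 tested members at 18 h, in 5 of 5 at 72 h and in 2 of 5 at 192 h, with medians of -0.027, 0.17 and -0.056. Psmb6, the caspase-like catalytic subunit, had log2 ratios of -0.10, 0.036 and 0.22 in replicates 3, 4 and 5 of 18 h. In replicates 1, 3 and 4 the ratios were 0.60, 0.21 and 0.19 at 72 h and 0.19, 0.050 and 0.0021 at 192 h. The 72 h ratios all lay above 0 and above those of 192 h, but overlapped those of 18 h, and the poly(A) replicate was the highest. The mean at 72 h was 0.33 ± 0.23 (SD, n = 3) with a limma SE of 0.14, an unadjusted p of 0.0357 and an adjusted p of 0.9997, rank 94 of all genes by p.

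The single arrays behind the 72 h value of Psmb6 were 0.60 in replicate 1, -0.066 with tumour RNA in Cy3 and 0.49 with it in Cy5 in replicate 3, and 0.16 and 0.22 in replicate 4. The labellings of replicate 3 thus differed in sign, and those of replicate 4 did not. The unadjusted limma p of Psmb6 at 72 h was 0.223 with a mean of 0.20 without replicate 1, and 0.130 with a mean of 0.17 with loess within print blocks.

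Psma1, an alpha subunit, had ratios of -0.91, -0.0099 and -0.11 in replicates 3, 4 and 5 of 18 h. Its mean of -0.34 ± 0.49 (SD, n = 3) rested mainly on replicate 3, where the arrays gave -1.23 with tumour RNA in Cy3 and -0.59 in Cy5. At 72 h it had -0.027, 0.42 and 0.12 in replicates 1, 3 and 4, and at 192 h -0.28, -0.090 and 0.056. Psma5, another alpha subunit, had -0.69, 0.14 and 0.015 at 18 h, again lowest in replicate 3, where the labellings gave -0.73 and -0.65. At 72 h and 192 h it stayed between -0.24 and 0.14.

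Psmb3, a beta subunit with no cutting site, had -0.78 in replicate 3 of 18 h, with -0.77 and -0.79 in the 2 labellings, and -0.054 in replicate 5. In replicates 1, 3 and 4 the ratios were 0.62, 0.085 and 0.14 at 72 h and -0.11, 0.47 and -0.044 at 192 h. It was thus above 0 in every replicate at 72 h and in 1 of 3 at 192 h. Psma3, an alpha subunit, had -0.19, 0.12 and 0.35 in replicates 3, 4 and 5 of 18 h. Psmb2, a beta subunit with no cutting site, had -0.20, -0.041 and 0.16 in the same replicates. The order of the 3 replicates of 18 h, with replicate 3 at the bottom, was the same in Psma3, Psmb2 and Psmb6. In Psma1 and Psma5, the other core genes tested at 18 h, replicate 3 was also lowest but replicate 4 lay above replicate 5. These genes share the arrays and are not independent.

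The 19S ATPases form the ring that unfolds substrates and opens the gate of the core. Psmc4 was the 1 ATPase measured in every replicate. It had ratios of -0.35, 0.24 and 0.19 in replicates 3, 4 and 5 of 18 h, and of 0.038, 0.12 and 0.061 in replicates 1, 3 and 4 of 72 h. At 192 h it had 0.058, -0.12 and 0.17. All its values but those of replicate 3 of 18 h and replicate 3 of 192 h were above 0, and its means at 18, 72 and 192 h were 0.028, 0.073 and 0.035.

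Psmc1 had ratios of -0.058, 0.20 and -0.20 in replicates 1, 3 and 4 of 72 h, and of 0.24, 0.19 and 0.066, all above 0, at 192 h. Psmc5 had 0.15, 0.38 and 0.013 at 192 h, also all above 0. With tumour RNA in Cy3 and Cy5, the arrays of Psmc5 gave 0.97 and -0.20 in replicate 3 and 0.14 and -0.12 in replicate 4. Those of Psmc1 gave 0.29 and -0.16 in replicate 4, and its replicate 3 had a value in Cy3 only. For both genes the labellings thus differed in sign at 192 h wherever both were measured. The means at 192 h were 0.17 ± 0.091 for Psmc1 and 0.18 ± 0.19 for Psmc5 (SD, n = 3 each), with a limma adjusted p of 0.992 for each. All 3 ATPases tested at 192 h had a mean above 0, with a median of 0.17.

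The non-ATPase subunits of the 19S particle hold its scaffold, its ubiquitin receptors and its own deubiquitinating site. Their means were above 0 in 0 of 2 members at 18 h, 5 of 6 at 72 h and 5 of 6 at 192 h, with medians of -0.13, 0.14 and 0.10. Psmd4, a ubiquitin receptor, had ratios of 0.71, -0.021 and 0.10 in replicates 1, 3 and 4 of 72 h and of -0.12, 0.45 and 0.010 at 192 h. A different replicate was high at each time, and its means were 0.26 ± 0.39 and 0.11 ± 0.30 (SD, n = 3 each).

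Psmd2, a scaffold subunit, had 0.20, 0.055 and 0.19 in replicates 1, 3 and 4 of 72 h. It was above 0 in all 3, with a mean of 0.15 ± 0.081 (SD, n = 3). The value of replicate 4 averages 0.54 with tumour RNA in Cy3 and -0.17 in Cy5, that of replicate 3 0.095 and 0.016. The SD does not include the difference between labellings. Psmd1, the other large scaffold subunit, was measured at 18 h at -1.43 in replicate 3 and -0.41 in replicate 5 only, and -1.43 was the lowest ratio of any member in any replicate. In replicate 3 only the array with tumour RNA in Cy5 gave a value, and in replicate 5 only that with tumour RNA in Cy3. At 72 h Psmd1 had 0.63, 0.084 and -0.10 in replicates 1, 3 and 4.

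Psmd3 had ratios of 0.45, 0.12 and -0.20 in replicates 1, 3 and 4 of 72 h, and of 0.58, 0.084 and 0.29 at 192 h. All 3 ratios of 192 h lay above 0, with a mean of 0.32 ± 0.25 (SD, n = 3), the highest of the 15 proteasome genes tested at 192 h, and a limma adjusted p of 0.992.

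Psmd13 had ratios of -0.29, -0.37 and 0.37 in replicates 3, 4 and 5 of 18 h. At 72 h it had -0.15, -0.19 and -0.035, and at 192 h 0.0069, 0.58 and 0.18, in replicates 1, 3 and 4. Every 192 h value thus lay above every 72 h value, though single arrays overlapped. The labellings gave -0.51 and 0.13 in replicate 3 of 72 h and -0.0063 and 0.36 in replicate 4 of 192 h. Psmd7, the partner of the particle's deubiquitinating subunit, had 0.090, -0.69 and 0.091 at 18 h, 0.45, -0.24 and 0.034 at 72 h, and 0.13, 0.35 and -0.38 at 192 h. Its values had both signs at every time. Psmd6 had -0.71 in replicate 3 of 18 h, with -0.63 and -0.78 in the 2 labellings, and 0.19 in replicate 4.

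Over core, regulatory particle and activators, the mean was above 0 in 3 of 8 genes at 18 h, 12 of 14 at 72 h and 10 of 15 at 192 h, with medians of -0.062, 0.14 and 0.080. The count at 72 h was the farthest from the 54.2% of all genes. It became 9 of 19 without replicate 1, 8 of 14 with loess within print blocks and 7 of 12 over replicates with both labellings, while the authors' deposited values gave 11 of 12. The counts out of 19 and 12 genes are over sets that differ from the 14. At 18 h the count became 6 of 8 without replicate 3. At 192 h it became 7 of 15, with a median of -0.053, without replicate 3, and was 14 of 21 in replicate 4 alone, the only replicate of that time on print 5.

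The activators Psme3 and Psme4 cap the core in place of the 19S particle. Psme4, which acts in the nucleus, had ratios of 0.72, -0.19 and -0.062 in replicates 1, 3 and 4 of 72 h and of -0.43, 0.079 and -0.74 at 192 h. Only replicate 1 was above 0 at 72 h and only replicate 3 at 192 h, and the mean at 192 h was -0.36 ± 0.41 (SD, n = 3). Psme3 was measured in 1 replicate at 18 h and in 2 at each later time, between -0.14 and 0.20.

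**Figure D2:**
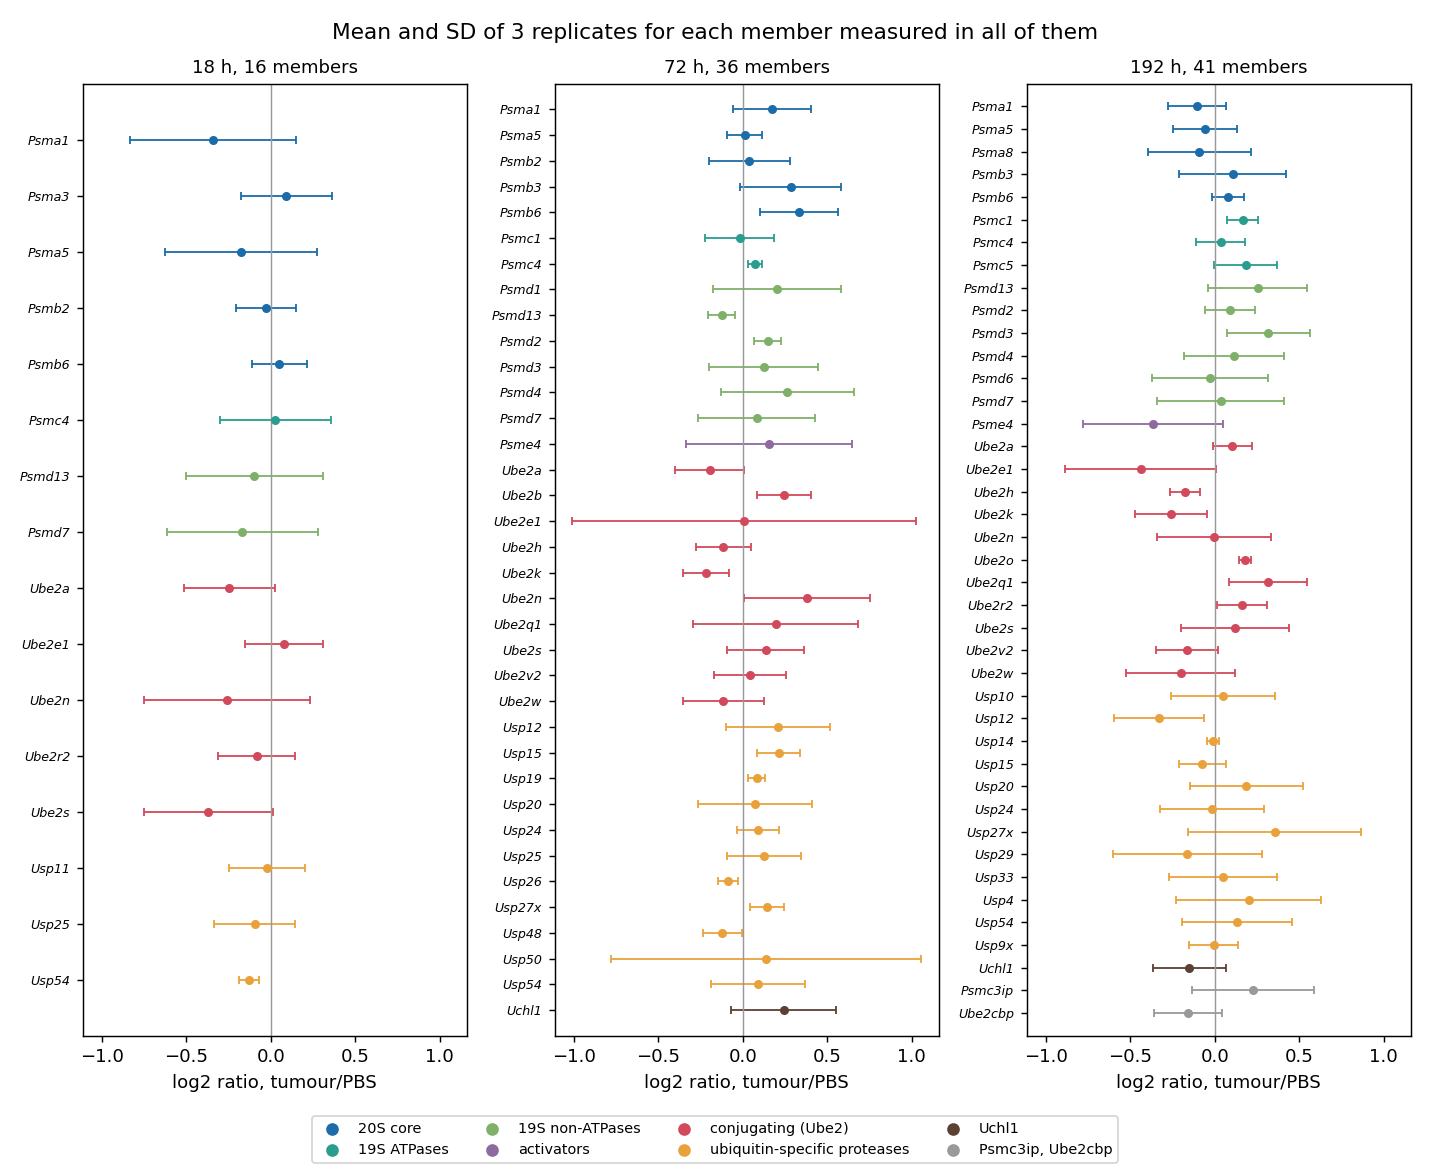
Mean log2 ratio of tumour over PBS (horizontal axis, points) with the SD of 3 replicates (bars) for each member tested at 18, 72 and 192 h, grouped and coloured by role. Most bars cross 0; of the 36 members tested at 72 h, 28 have a mean above 0, and the highest means are Ube2n at 0.38 and Psmb6 at 0.33.

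The conjugating enzymes carry ubiquitin and set the kind of chain that is built. Their means were above 0 in 1 of 5 members at 18 h, 6 of 10 at 72 h and 5 of 11 at 192 h, with medians of -0.24, 0.026 and -0.0036. In replicate 3 of 18 h alone, 12 of 15 were below 0 and their median was -0.33. Over all 59 members measured in that replicate 38 (64.4%) were below 0, against 53.2% of all genes.

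Ube2n, which builds the chains used in signalling and DNA repair, had ratios of -0.80, -0.12 and 0.15 in replicates 3, 4 and 5 of 18 h. At 72 h it had 0.78, 0.052 and 0.31 in replicates 1, 3 and 4. In the same replicates of 192 h the ratios were 0.36, -0.059 and -0.31. All 72 h values were above 0, but the lowest of them lay under the highest of 18 h. The arrays of replicate 3 of 18 h gave -0.86 and -0.75, those of replicate 3 of 72 h -0.12 and 0.22, and replicate 4 of 72 h had a value with tumour RNA in Cy3 only, 0.31.

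The difference of 72 h minus 18 h for Ube2n was 0.64 on the log2 scale with a limma SE of 0.28, an unadjusted p of 0.0382 and an adjusted p of 0.766. It was 0.37 without replicate 3 of 18 h, 0.44 without replicate 1 of 72 h, 0.17 without both and -0.20 in the authors' deposited values, where the sign is turned. Unadjusted limma p under 0.05 was reached in that difference by 5.97% of all genes.

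Ube2s, which extends chains for the anaphase-promoting complex, had ratios of -0.81, -0.14 and -0.16 in replicates 3, 4 and 5 of 18 h. All 3 lay below 0, with a mean of -0.37 ± 0.38 (SD, n = 3), an unadjusted limma p of 0.0516 and an adjusted p of 0.735, the smallest p of any member at 18 h. The labellings of replicate 3 gave -0.15 with tumour RNA in Cy3 and -1.47 in Cy5. At 72 h Ube2s had 0.35, 0.17 and -0.10, and at 192 h 0.47, -0.15 and 0.032, in replicates 1, 3 and 4. Every 72 h value lay above every 18 h value, and the difference was 0.51 with an unadjusted limma p of 0.0583 and an adjusted p of 0.766.

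Ube2a, a homologue of yeast Rad6, had ratios of -0.50, -0.26 and 0.030 in replicates 3, 4 and 5 of 18 h and of -0.43, -0.11 and -0.047 in replicates 1, 3 and 4 of 72 h. At 192 h it had -0.022, 0.19 and 0.15, each above every 72 h value. This separation did not hold for single arrays. With tumour RNA in Cy3 and Cy5, Ube2a had 0.22 and -0.45 in replicate 3 and -0.24 and 0.15 in replicate 4 of 72 h. Its labellings also differed in sign in replicate 4 of 192 h, at -0.080 and 0.37. Ube2b, the other Rad6 homologue, had -0.78 in replicate 3 of 18 h and 0.42, 0.10 and 0.22 at 72 h, where its sign was opposite to that of Ube2a in each replicate. These 72 h values of Ube2b all came from arrays with tumour RNA in Cy5, on which Ube2a had -0.43, -0.45 and 0.15. With tumour RNA in Cy3, Ube2b had -0.046 in replicate 3 of 18 h, and -0.41 and -0.31 in replicates 3 and 4 of 192 h. In Cy5 it had -1.51 in replicate 3 of 18 h and 0.18 in replicate 3 of 192 h.

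Ube2k, an enzyme that builds chains for degradation, had ratios of -0.26 and -0.46 in replicates 3 and 4 of 18 h. In replicates 1, 3 and 4 the ratios were -0.35, -0.078 and -0.23 at 72 h and -0.45, -0.29 and -0.032 at 192 h. All 8 measured ratios were below 0, with means at the later times of -0.22 ± 0.14 and -0.26 ± 0.21 (SD, n = 3 each) and limma adjusted p values of 0.9997 and 0.992.

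Ube2e1 had ratios of 0.21, 0.21 and -0.19 in replicates 3, 4 and 5 of 18 h, -0.997, 1.04 and -0.018 in replicates 1, 3 and 4 of 72 h, and -0.64, -0.75 and 0.072 at 192 h. Its SD of 1.02 at 72 h was the largest of any member. The value of replicate 4 of 18 h averages 2.44 with tumour RNA in Cy3 and -2.03 in Cy5, that of replicate 3 of 18 h -0.22 and 0.65, and that of replicate 4 of 72 h -0.78 and 0.75. The labellings of Ube2e1 thus had opposite signs in each of these replicates. Ube2q1 had 0.70, 0.15 and -0.27 at 72 h and 0.32, 0.55 and 0.088 at 192 h, where all 3 were above 0 with a mean of 0.32 ± 0.23 (SD, n = 3). Ube2h had -0.28, -0.11 and 0.045 at 72 h and -0.12, -0.28 and -0.14 at 192 h. Of these 6 values 5 were below 0.

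Of the remaining conjugating enzymes, Ube2r2, Ube2v2, Ube2w and Ube2o had means between -0.20 and 0.18 wherever they were tested. Ube2o had 0.82 and -0.47 in replicates 3 and 4 of 18 h, and was above 0 in all 3 replicates of 192 h, at 0.19, 0.14 and 0.21. Ube2c, Ube2g2 and Ube2t, measured in 1 or 2 replicates of a time, were never tested.

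The deubiquitinating enzymes remove ubiquitin and edit its chains. Together with Uchl1, the ubiquitin-specific proteases had means above 0 in 0 of 3 members at 18 h, 10 of 12 at 72 h and 6 of 13 at 192 h, against 30.6%, 54.2% and 49% of all genes. The count at 72 h was 10 of 16 without replicate 1, 6 of 12 with loess within print blocks and 1 of 5 over replicates with both labellings. The runs with 16 and 5 genes cover other sets than the 12 of the main test.

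Usp12, which acts on histones and signalling proteins, was measured at 18 h in replicate 5 only, at 0.32. It had ratios of 0.40, -0.15 and 0.37 in replicates 1, 3 and 4 of 72 h. At 192 h it had -0.30, -0.61 and -0.077, all below 0, with a mean of -0.33 ± 0.27 (SD, n = 3). The arrays of replicate 3 of 192 h gave -0.59 and -0.63, those of replicate 4 -0.18 and 0.029. The difference of 192 h minus 72 h was -0.54 with an unadjusted limma p of 0.0420 and an adjusted p of 0.9995, in a comparison where 2.36% of all genes had an unadjusted p under 0.05. It was -0.19 within print 5, where 72 h has 2 replicates and 192 h has 1, -0.28 with loess within print blocks and -0.22 in the authors' deposited values, whose log base is unknown.

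Usp27x, a close relative of the histone H2B protease Usp22, had ratios of 0.26, 0.11 and 0.064 in replicates 1, 3 and 4 of 72 h, and of 0.95, 0.044 and 0.075 at 192 h. All 6 were above 0, but the mean at 192 h of 0.35 ± 0.51 (SD, n = 3) came almost wholly from the poly(A) replicate. The labellings of Usp27x differed in sign in replicate 3 of 72 h (0.37 in Cy3, -0.15 in Cy5) and of 192 h (0.15 and -0.065). Both were above 0 in replicate 4 of 192 h, and the other values came from Cy5 arrays only. Usp4 had 0.66, 0.12 and -0.19 at 192 h, with the same replicate highest.

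Usp15, a regulator of TGF-beta signalling, had ratios of 0.068, 0.31 and 0.26 in replicates 1, 3 and 4 of 72 h and of 0.047, -0.23 and -0.040 at 192 h. Every 192 h value lay below every 72 h value. Usp25 had -0.28, -0.18 and 0.18 in replicates 3, 4 and 5 of 18 h and 0.23, -0.13 and 0.27 at 72 h. Usp11 had 0.15, -0.28 and 0.068 at 18 h. Both genes had values on each side of 0 at each time named.

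Usp54 was the 1 protease measured in every replicate. It had ratios of -0.20, -0.085 and -0.10 in replicates 3, 4 and 5 of 18 h, all below 0 with a mean of -0.13 ± 0.061 (SD, n = 3). At 72 h it had 0.39, 0.042 and -0.16, and at 192 h 0.51, -0.093 and -0.020, in replicates 1, 3 and 4. In both later times replicate 1 was the highest and the only one far above 0.

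Usp14, which binds the 19S particle and trims chains there, stayed near 0 at 192 h, with ratios of -0.046, 0.019 and 0.00093. Usp18, the interferon-induced protease of the ubiquitin-like protein ISG15, had ratios of 0.061 and 0.070 in replicates 3 and 4 of 18 h, 0.18 in replicate 4 of 72 h, and 0.051 and 0.096 in replicates 3 and 4 of 192 h. All 5 were above 0, but only replicate 4 of 18 h had both labellings, at 0.15 with tumour RNA in Cy3 and -0.0072 in Cy5. Usp18 was tested at no time. Usp24 had the lowest ratio of any protease, -1.20 in replicate 3 of 18 h, where the labellings gave -1.11 and -1.29. Usp50 had 0.98 in the same replicate, with 0.89 and 1.08 in the labellings, but -0.72 in replicate 4 of 18 h.

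Uchl1 had ratios of 0.22 and -0.092 in replicates 3 and 4 of 18 h. In replicates 1, 3 and 4 the ratios were 0.24, 0.56 and -0.066 at 72 h and -0.36, -0.16 and 0.073 at 192 h. The means of 0.24 ± 0.31 at 72 h and -0.15 ± 0.22 at 192 h (SD, n = 3 each) were smaller than their spread. Of the genes that match only by prefix, Psmc3ip had 0.58, 0.24 and -0.14 and Ube2cbp -0.30, 0.075 and -0.25 in replicates 1, 3 and 4 of 192 h.

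No member passed limma's adjusted threshold between times. For 72 h minus 18 h 13 members among 1005 genes were tested, for 192 h minus 18 h 12 among 973, and for 192 h minus 72 h 28 among 1905, with 0 called and 0% called among all genes in each. All 3 values of 72 h lay above those of 18 h in 1 of 13 members, Ube2s, against 10.7% of all genes, and below them in 0, against 1.99%. Those of 192 h lay above those of 72 h in Psmd13 and Ube2a, 2 of 28, against 1.36%, and below them in Psmb6 and Usp15, 2 of 28, against 7.45%. These are replicate values, and the single arrays of each of these genes overlapped between 72 h and 192 h. Between 192 h and 18 h, 0 of 12 members were apart, against 6.17% of genes higher and 3.7% lower at 192 h.

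Over the 3 times together, 11 members were among the 737 genes measured in all 9 replicates, and limma's test of the mean over times and its F-test for any time each called 0 of them and 0% of the genes. An unadjusted p under 0.05 was reached by 0 members in both, against 3.26% of genes for the mean and 2.58% for the F-test. The smallest unadjusted limma p of the mean over times was 0.0831, for Psmb6, with a mean of 0.15, and the smallest adjusted p of the F-test among members was 0.964. The lowest of the 9 values came from replicate 3 of 18 h in 8 of these 11 members, against 43.4% of all genes, and the highest from replicate 1 of 72 h in 3, Psmb6, Psmd7 and Ube2n, against 25.4%.

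**Figure D3:**
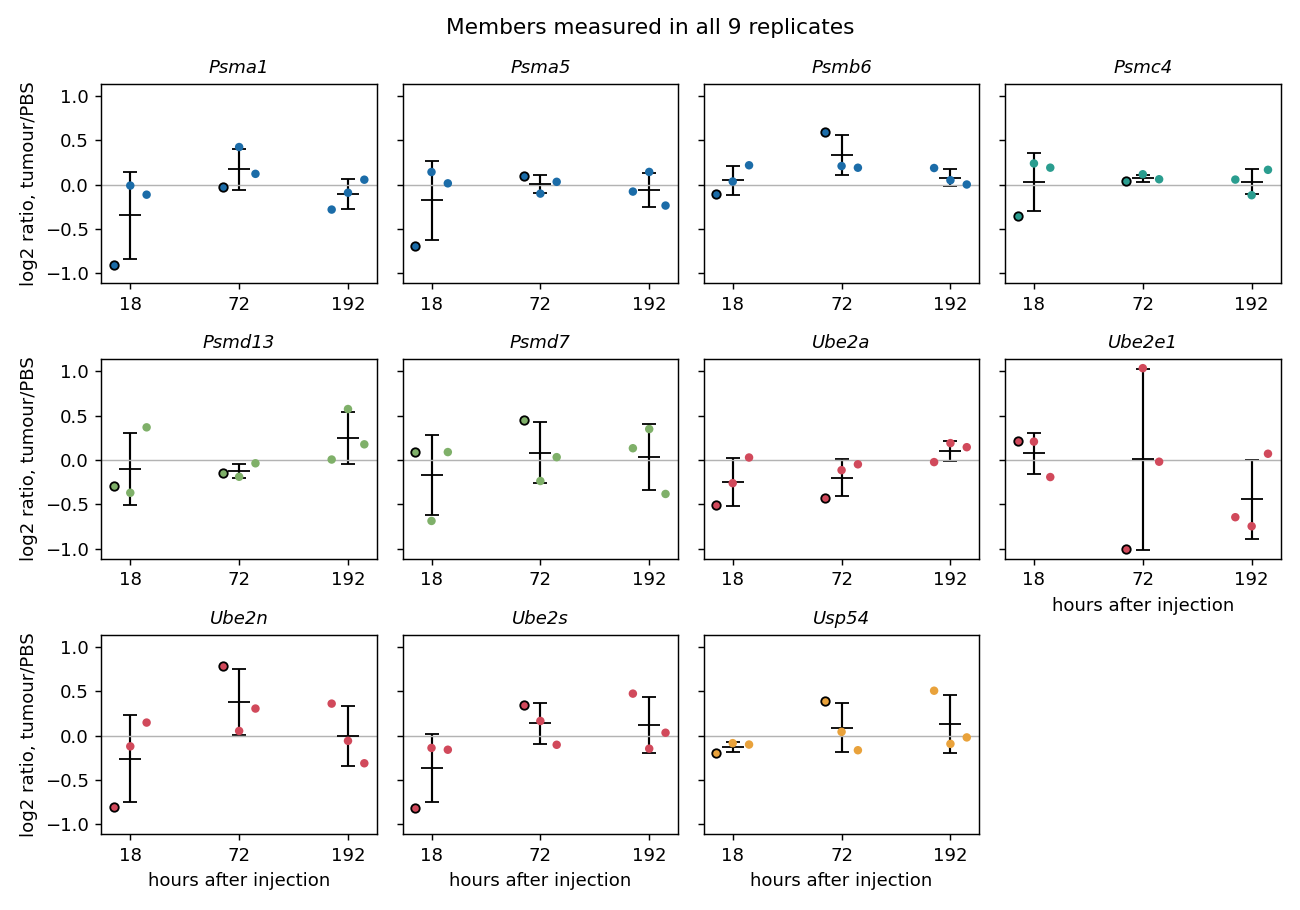
Log2 ratio of tumour over PBS (vertical axis) at 18, 72 and 192 h (horizontal axis) of the 11 members with a value in all 9 replicates, each replicate as a point with the mean and SD of 3, and with replicate 3 of 18 h and replicate 1 of 72 h outlined. The outlined point of 18 h is the lowest of the 9 in 8 of the 11 panels, and that of 72 h the highest in 3.

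Genes that work beside these families were followed in lists of E1 enzymes, ligases and their parts, assembly and shuttle factors, other deubiquitinating enzymes, ubiquitin-like modifiers and the ubiquitin genes themselves, with 68 of 152 listed genes on the prints. Of them 15, 31 and 36 were tested at 18, 72 and 192 h, 5, 19 and 19 had a mean above 0, against 30.6%, 54.2% and 49% of all genes, and 0 were called by limma. Their medians were -0.092, 0.052 and 0.0052, against -0.091, 0.017 and -0.0032 for all genes. In replicate 3 of 18 h 44 of 63 were below 0.

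Unadjusted limma p under 0.05 was reached by 3 of these genes. Vcp, the ATPase that extracts ubiquitinated proteins from complexes and membranes, had ratios of 0.96, 0.52 and -0.085 in replicates 1, 3 and 4 of 72 h, with a mean of 0.46 ± 0.52 (SD, n = 3) and a limma adjusted p of 0.9997. Ube4b, a chain-extending ligase, had 0.88, 0.071 and 0.29 in the same replicates, highest in replicate 1 as Vcp was. Bap1, a nuclear deubiquitinating enzyme of histone H2A, had 0.70, 0.33 and 0.16 in replicates 1, 3 and 4 of 192 h, all above 0, with a mean of 0.39 and a limma adjusted p of 0.992.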

How the data were processed

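Hypothalamus RNA of tumour-injected and PBS-injected mice was compared directly on in-house printed 2-colour oligonucleotide arrays. The 48 scanner files deposited for the 16 arrays used, 3 scans each, list spot intensities from which local background was already subtracted, per the file headers. Saturation is given there by the authors as a fraction, with flags beside it. The deposited value tables of the authors give log ratios of unknown base and were treated as a score. Neither scanner nor image software is given in the sources used here.

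Spots flagged as not measured, saturated or not above 0 were dropped. Log2 ratios were normalized per scan in R 4.3.3 with limma 3.58.1 (loess, span 0.3, 4 iterations) and averaged over scans. The dye effect of a probe (SD 0.24 log2 over 8752 probes), its average Cy5 to Cy3 log ratio in the 7 replicates hybridised in both labellings, was subtracted. It comes from the same arrays, so the replicate values of a probe measured on few arrays are tied to each other. Channel A was taken as Cy3 and B as Cy5, and the sign of the authors' tables follows the labelled orientation. Arrays were averaged per replicate. The brightest probe stood for a gene, and 11 accessions with several symbols were not named. One limma model with a mean per time shared its spread over 5413 genes (prior degrees of freedom 8.48), with Benjamini-Hochberg adjustment over all genes tested. The number of arrays limits the precision, and the tests reflect only the spread among these replicates. Only the limma test and its adjustment were run on simulated ratios. The steps before them, from the scans to the replicate values, were not.

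Genes given in full are, per time and class, the 3 members of smallest p, every member with an unadjusted p under 0.05 in any test, and those measured in all 9 replicates. Psmd6, Ube2h, Ube2o, Usp14, Usp18, Usp24 and Usp50 were added after their values were seen. Members and lists were chosen with earlier results of these data known. The 13 arrays of prints 1 and 2 were not used here. Alternatives concerned background, centring, dye effect, scans, probes, replicates, block fits and the authors' values.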

Additional observations from a re-analysis of the deposited data

How the results depend on the processing

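Under every alternative run, 0 members passed limma's adjusted threshold. Over all genes the count, 0 as reported, was 2 at 18 h and 1 at 192 h when 2 of 3 replicates were enough, 2 at 72 h over replicates with both labellings (chosen after seeing the data), 1 at 192 h without the poly(A) replicates, and 0 to 2 at 18 h and at 192 h when a replicate was left out. The members' median log2 ratio at 18 h, -0.095, was -0.25 with median centring, where that of all genes was -0.15. At 72 h, 0.11 as reported, it was -0.043 over replicates with both labellings. Leaving out a replicate gave medians from -0.095 to 0.0050 at 18 h, -0.0055 to 0.11 at 72 h and 0.010 to 0.085 at 192 h, the last without replicate 4. Members with a mean above 0 at 18 h, 4 of 16, became 1 of 16 with median centring, 2 of 14 in the authors' values and 17 of 43 with 2 of 3 replicates. When a replicate was left out the count was 4 to 13, out of numbers of tested members that differed between runs. At 72 h, 28 of 36 as reported became 18 of 36 with loess within print blocks, 24 of 50 within print 5 or without poly(A) RNA and 9 of 26 over both labellings. With a replicate left out the count was 24 to 29, again out of differing numbers. At 192 h the members with a mean above 0 numbered 17 to 33 under all alternatives, also out of differing numbers. Of 2042 means of single members at a time, taken over all alternatives, 226 had the opposite sign to the reported mean. Many of the 2042 could not turn, since leaving out a replicate of another time does not alter a mean. The share is thus no measure of how stable the signs are. The difference of 72 h minus 18 h for Ube2n turned to -0.20 in the authors' values. The cause of these turns was not tested. Without replicate 1, 12 of the 36 members tested at 72 h changed the sign of their mean. Labels do not pair replicates across times: same-numbered pairs (7) had correlations of -0.12 to 0.23 and others (20) of -0.27 to 0.13, over 737 genes. With the replicate number as a block, 0 genes passed in each of the 3 differences between times, and Ube2n had 0.65 for 72 h minus 18 h.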
